A study of Mus musculus with 5 samples.

Results

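The melanocyte and neural crest genes described here are Kit, Dct, Tyr, Tyrp1, Mitf, Sox10, Pmel, Mlana, Ednrb and Mc1r, 10 of 21728 protein-coding genes of GENCODE M21 on mm10. They were taken as a named list and found by symbol, and their H3K27me3 was read as the length covered by peaks within 3 kb and within 25 kb of each gene start in every library. H3K27me3, trimethylation of lysine 27 on histone H3, was profiled by ChIP-seq in dermal fibroblasts of late mouse embryos of C57BL/6 background, expanded in AmnioMAX culture. The Kdm6b-cKO libraries, replicates 3 and 4, came from embryos with Kdm6b fl/fl alleles and Cre under the Dermo1 (Twist2) promoter, which is active in the dermal mesenchyme. The WT libraries, replicates 7 and 9, carry only WT in their labels, and whether they carry the Kdm6b fl/fl alleles is not given for the ChIP-seq. All libraries share the same label of a sort for GFP as a sign of the conditional knockout, the WT ones too, and what GFP marked in WT is not given. Whether the 2 libraries of a genotype came from separate embryos is not stated, so a p-value measures the spread between these libraries, which may be technical.

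Melanocytes arise from the neural crest, migrate through the dermis and settle in the hair follicle, where they make pigment. Sox10 and Mitf are the transcription factors that specify them, Kit, Ednrb and Mc1r are the receptors through which they are guided, expanded and switched between pigment types, and Tyr, Tyrp1, Dct, Pmel and Mlana build the melanosome and its melanin. Fibroblasts do not use this programme, and Polycomb repressive complex 2 places H3K27me3 on many developmental genes that a cell type does not use. Kdm6b, also named Jmjd3, removes the mark.

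In mammals Polycomb domains often form at gene starts rich in the dinucleotide CpG, and the sequences at these starts, read from RefSeq for GRCm38.p6, differed in it. Shown here, with every CG in capitals and annotated UTR bases left off, are the bases just before the RefSeq start of a gene that lay under peaks in all 4 libraries (Kit, chr5:75574737-75574915, plus strand), of receptors with peaks in both Kdm6b-cKO libraries alone (Ednrb, chr14:103843702-103843951, minus strand, and Mc1r, chr8:123406832-123407081, plus strand), and of a gene with no peak within 25 kb in any library (Tyr, chr7:87493513-87493762, minus strand).
Kit: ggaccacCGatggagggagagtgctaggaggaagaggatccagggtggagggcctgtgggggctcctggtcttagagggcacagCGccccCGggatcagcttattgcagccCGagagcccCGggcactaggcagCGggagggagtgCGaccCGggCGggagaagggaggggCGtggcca
Ednrb: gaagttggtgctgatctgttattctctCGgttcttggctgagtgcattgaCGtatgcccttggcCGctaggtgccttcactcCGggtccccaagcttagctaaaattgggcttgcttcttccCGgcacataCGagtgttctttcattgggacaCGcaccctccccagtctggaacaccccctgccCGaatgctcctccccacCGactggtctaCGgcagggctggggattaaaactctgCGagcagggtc
Mc1r: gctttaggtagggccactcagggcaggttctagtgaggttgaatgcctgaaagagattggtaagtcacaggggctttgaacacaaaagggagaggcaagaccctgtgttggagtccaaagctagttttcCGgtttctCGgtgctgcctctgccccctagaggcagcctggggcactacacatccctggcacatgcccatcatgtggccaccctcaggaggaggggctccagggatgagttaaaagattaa
Tyr: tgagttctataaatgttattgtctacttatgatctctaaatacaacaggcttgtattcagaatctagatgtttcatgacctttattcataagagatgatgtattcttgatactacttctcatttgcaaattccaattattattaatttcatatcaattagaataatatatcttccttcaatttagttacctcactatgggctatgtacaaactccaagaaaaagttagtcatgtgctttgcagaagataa
The 179 Kit bases held 10 CG at 69.3% GC, and the 250 bases of Ednrb, Mc1r and Tyr held 11, 2 and 0 CG at 56.8%, 54.4% and 28.8% GC. Peaks covered the Kit bases in all 4 libraries, and the Ednrb bases, which lie 451 to 700 bases after its GENCODE start, in Kdm6b-cKO replicate 4 alone. The Mc1r and Tyr bases were under no peak.

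Pigment genes also carry the M-box, the E-box variant that Mitf binds in melanocytes. Its core letters TCATGTG, which hold the E-box letters CATGTG, were searched on both strands of the 250 bases before each RefSeq start. They were present at 4 of the 7 members that the RefSeq table holds (Dct, Tyr, Tyrp1 and Mc1r, but not Kit, Mitf or Ednrb) and in 3.25% of all 32851 such sequences. The 30 bases around each match are shown, the core letters in capitals, because these genes share those letters but not the mark. Dct and Mc1r had peaks near the start in Kdm6b-cKO and Tyr and Tyrp1 had none. The bases on either side of the core were not searched.
Dct: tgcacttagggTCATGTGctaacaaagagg
Dct, opposite strand: tctttattgggcTCATGTGtcccagccaag
Tyr: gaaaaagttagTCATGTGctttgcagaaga
Tyrp1: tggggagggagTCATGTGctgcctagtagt
Mc1r: gcacatgcccaTCATGTGgccaccctcagg
The Dct matches, at chr14:118052379-118052408 and chr14:118052460-118052489, began 151 and 232 bases before the start, and the nearer one lay under the peak of Kdm6b-cKO replicate 4. Those of Tyr (chr7:87493516-87493545), Tyrp1 (chr4:80834155-80834184) and Mc1r (chr8:123407019-123407048) began 22, 47 and 52 bases before it. A match is a description of the sequence and not of binding. Sox10, Pmel and Mlana have no entry in the table.

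The members fell into 3 patterns. A promoter, the gene start with 3 kb on either side, was called marked when peaks covered at least 500 bp of it. Sox10 and Kit were marked in all 4 libraries, Dct, Ednrb and Mc1r in both Kdm6b-cKO libraries alone, and Tyr, Tyrp1, Mitf, Pmel and Mlana in none, so 5 of 10 members were marked in at least 1 library, against 28.8% of all protein-coding genes. Of those 5, 2 were marked in all 4 libraries (52.7% of marked genes in general) and 3 in both Kdm6b-cKO libraries alone (14.9%). All 3 lost that pattern when each library was cut to the number of peaks of the shortest list, to its covered length, or to peaks with a −log10 q of at least 3.

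**Figure D1:**
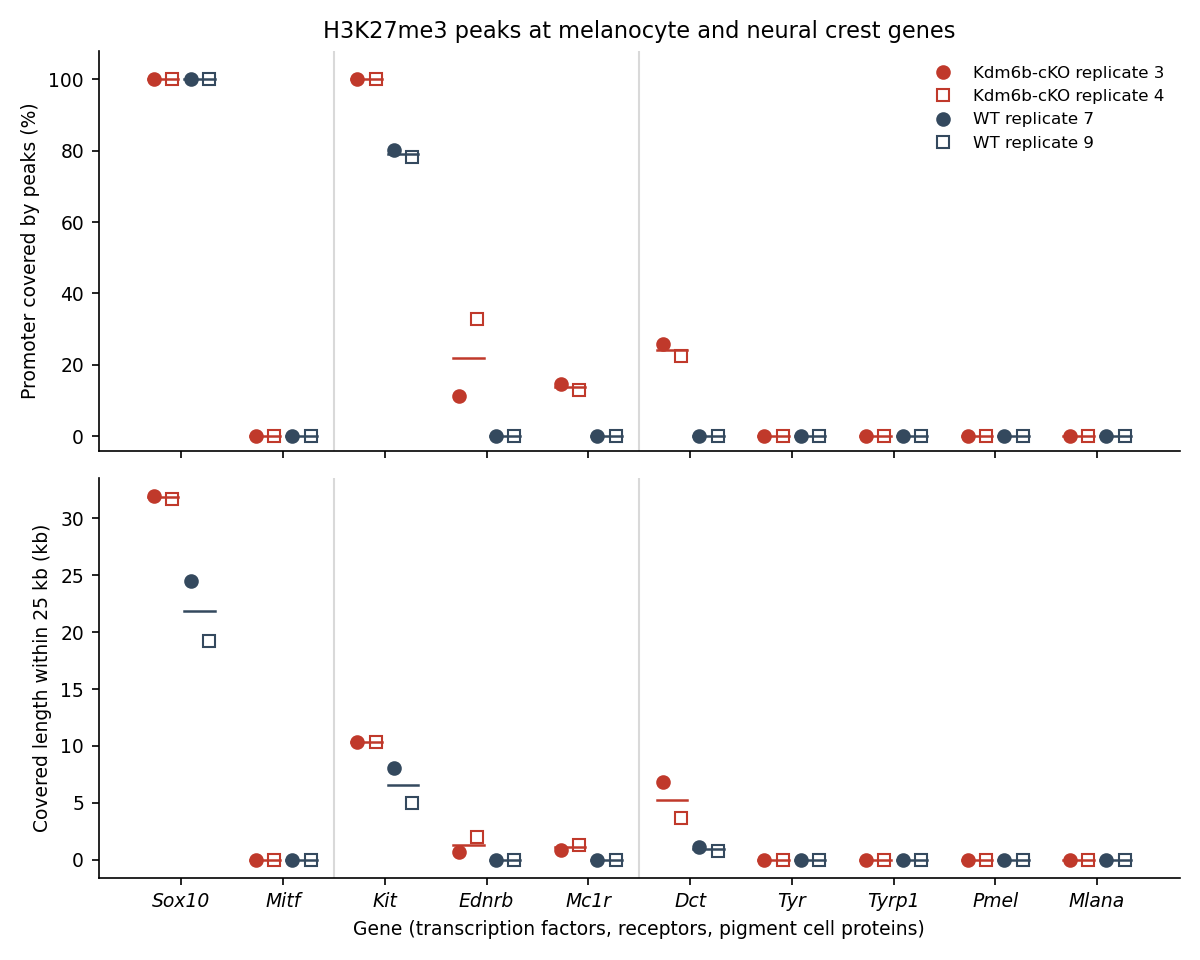
Percent of the promoter (start ± 3 kb, upper panel) and kb within 25 kb of the start (lower panel) covered by H3K27me3 peaks at each of the 10 members, 1 point per library, with Kdm6b-cKO in red left of WT in dark blue and a bar at the mean of each genotype (n = 2). Sox10 is fully covered in all 4 libraries, Kit is at 100% in both Kdm6b-cKO libraries, and Ednrb, Mc1r and Dct are above 0 at the promoter only in Kdm6b-cKO.

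Both Kdm6b-cKO libraries had more peaks and more covered genome than both WT libraries. The lists held 44084 and 40577 peaks in Kdm6b-cKO cells and 29848 and 22607 in WT, covering 148.3 and 123.9 Mb of the autosomes and X in Kdm6b-cKO and 91.4 and 61.5 Mb in WT. Over the 6251 promoters marked in at least 1 library the mean covered share was 53.6% in Kdm6b-cKO and 36.4% in WT, a difference of 17.2 points, and over the 11829 genes with at least 500 bp covered within 25 kb the mean length was 10.3 kb and 6.24 kb, a difference of 4.06 kb. The lists hold no reads, so the reads behind each peak are unknown, although the study's methods describe subsampling to a like number of reads. A mark present in few cells and a weak mark in all cells cannot be told apart in bulk chromatin. The summed length within 25 kb of the 10 members was 50.6 and 49.0 kb in Kdm6b-cKO cells and 33.7 and 24.98 kb in WT cells, means of 49.8 ± 1.11 and 29.3 ± 6.14 kb (SD, n = 2 each), a ratio of 1.70 beside 1.78 for the covered genome. Sox10 made up most of that sum, and without it the means were 17.97 ± 0.96 kb in Kdm6b-cKO cells and 7.46 ± 2.45 kb in WT cells.

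Sox10, the SRY-box factor that neural crest cells, melanocytes and Schwann cells depend on, had the broadest domain of all members (chr15:79154908-79165240, minus strand). Its promoter was covered at 100% in all 4 libraries, so the promoter measure could not show a gain. Within 25 kb the peaks spanned 31.9 and 31.7 kb in Kdm6b-cKO cells and 24.5 and 19.3 kb in WT cells, and the 2 genotypes did not overlap. The difference of 9.98 ± 2.08 kb (SE) did not pass limma (adjusted p = 0.0753). Of the alternatives that kept all 4 libraries, it passed only with each library set to the same mean (5.92 kb, adjusted p = 0.0218). It did not pass with equal peak number (8.71 kb, adjusted p = 0.104), equal covered length (9.35 kb, 0.0901) or no filter (9.98 kb, 0.285). The difference was 9.88 kb without Kdm6b-cKO replicate 3 and 10.1 kb without Kdm6b-cKO replicate 4. It was 12.6 kb without WT replicate 7 and 7.37 kb without WT replicate 9. Those fits leave a genotype without replication, so no p-value is given for them.

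The Sox10 domain was 1 unbroken peak of 31.0 and 30.1 kb in the Kdm6b-cKO libraries, while the peak over the start measured 17.1 and 14.2 kb in WT and was followed upstream by separate peaks. Farther upstream, past 23 kb, the Kdm6b-cKO libraries had a separate peak each, of 0.90 and 2.12 kb. Most of the added length lay upstream: 21.4 and 21.6 kb were covered there in Kdm6b-cKO cells and 15.0 and 10.4 kb in WT cells, whereas downstream the lengths were 10.6 and 10.2 kb in Kdm6b-cKO cells and 9.49 and 8.83 kb in WT cells. The whole 10.3 kb gene was covered in Kdm6b-cKO replicate 3, and 8.83 kb of it in WT replicate 9, the lowest. Its peak was also among the strongest of each list, at −log10 q of 10.7 and 10.2 in Kdm6b-cKO and 6.39 and 5.24 in WT, where MACS2 averages that value over the broad region. The noncoding gene Gm10863 starts 0.80 kb upstream of Sox10 and shares the domain, whereas the promoters of Polr2f and 1700088E04Rik, about 24 kb downstream, held no covered base in any library.

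Mitf, the basic helix-loop-helix factor that switches on the pigment genes, had no peak within 25 kb of its start (chr6:97807052-98021349, plus strand) in any library. It has 7 distinct annotated transcript starts, 6 of them coding, and none was marked. From the most upstream start the nearest peak lay 41.2 and 73.7 kb away in Kdm6b-cKO cells and 42.8 and 78.4 kb away in WT cells. Both genotypes therefore had 1 library with a peak just past 40 kb and 1 with none before 70 kb.

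**Figure D2:**
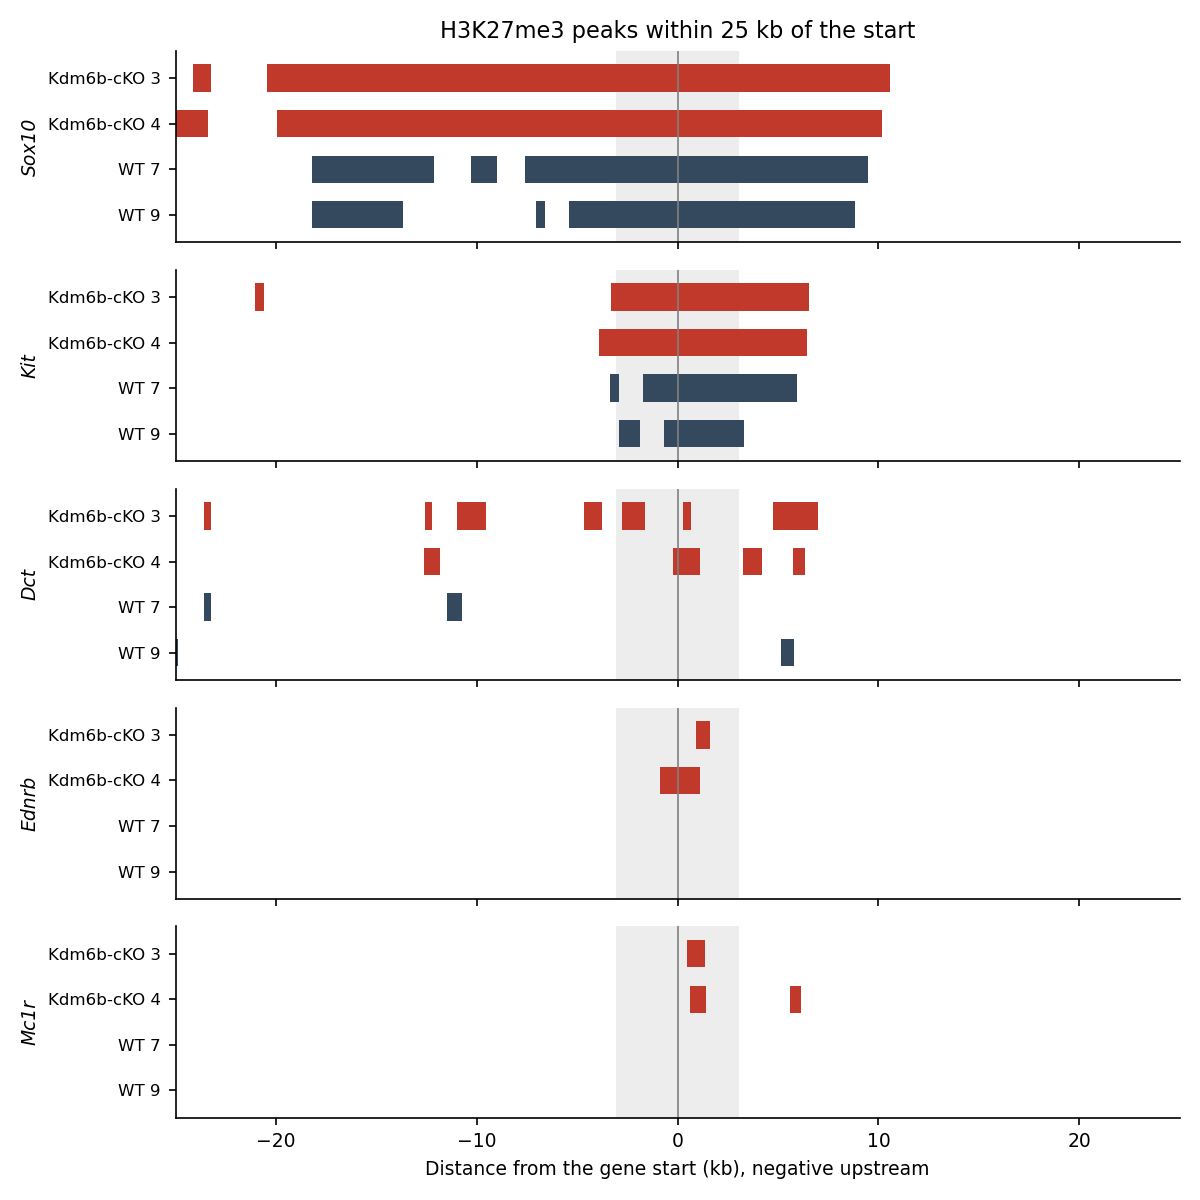
H3K27me3 peaks within 25 kb of the start of the 5 members that had any, by distance from the start in kb with upstream negative, 1 row per library, Kdm6b-cKO (red) above WT (dark blue), and the promoter shaded. The Sox10 and Kit domains are unbroken over the start in Kdm6b-cKO and split upstream of it in WT, and Ednrb and Mc1r have peaks in the Kdm6b-cKO rows only.

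Kit, the receptor tyrosine kinase for stem cell factor that melanoblasts need to survive and migrate, was covered over its whole promoter in Kdm6b-cKO and over most of it in WT (chr5:75574916-75656722, plus strand). The share covered was 100% in Kdm6b-cKO replicates 3 and 4, beside 80.1% and 78.2% in WT. In both Kdm6b-cKO libraries the peak ran past the edges of the promoter, so the share sat at its ceiling of 100% (SD 0). That ceiling hides any spread between the Kdm6b-cKO libraries, on which the SE and the limma call rest in part. The rise of 20.8 ± 1.08 points (SE) passed limma (adjusted p = 0.0256), 1 of the 7.93% of tested promoters called higher in Kdm6b-cKO. It no longer passed without Kdm6b-cKO replicate 3 (adjusted p = 0.0758), Kdm6b-cKO replicate 4 (0.0713) or WT replicate 9 (0.0884), nor with each library set to the same mean, where 3.67 points remained (adjusted p = 0.779).

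Within 25 kb of the Kit start 10.3 and 10.4 kb were covered in Kdm6b-cKO cells and 8.08 and 4.97 kb in WT cells, and the groups did not overlap. This difference of 3.80 ± 1.34 kb did not pass limma (adjusted p = 0.157), and with each library set to the same mean it turned to −0.26 kb (adjusted p = 0.905). The Kit domain was 1 peak over the start in Kdm6b-cKO, 9.85 and 10.4 kb long at −log10 q of 9.46 and 8.91. In WT the peak over the start was 7.66 and 3.94 kb long at −log10 q of 6.96 and 5.80, and a second, weaker peak stood upstream after a gap. A stretch of 136 bp at chr5:75573044-75573179, from −1872 to −1737 bases of the start, lay in the gap of both WT libraries and under the peak of both Kdm6b-cKO libraries. The mark stayed near the start of this 81.8 kb gene, with at most 6.53 kb of it covered in any library.

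Ednrb, the endothelin receptor B that melanoblasts and enteric neural crest cells require, had a peak near the start in Kdm6b-cKO alone (chr14:103814625-103844402, minus strand). The peak covered 673 and 1966 bp of the promoter in Kdm6b-cKO, or 11.2% and 32.8%, and 0 bp in either WT library. Those are also its lengths within 25 kb, where the difference of 1.32 kb turned to −2.74 kb with each library set to the same mean. The nearest WT peak was 168 kb away in both WT libraries. The difference in promoter share, 21.99 ± 9.55 points, did not pass limma (adjusted p = 0.323). It was 32.8 points without Kdm6b-cKO replicate 3 and 11.2 points without Kdm6b-cKO replicate 4. Each of those fits sets 1 Kdm6b-cKO library against 0 bp in both WT libraries, so this promoter has no spread of its own there. No conclusion is drawn from their p-values.

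Mc1r, the melanocortin receptor that switches melanocytes to dark pigment, had a short peak over its coding exon in Kdm6b-cKO alone (chr8:123407107-123410744, plus strand). It covered 878 and 776 bp in Kdm6b-cKO, or 14.6% and 12.9% of the promoter, and 0 bp in either WT library, whose nearest peaks were 105 and 70.9 kb away. The difference of 13.8 ± 1.04 points passed limma (adjusted p = 0.0356), but this promoter too entered the test only through the Kdm6b-cKO libraries, and with no filter the adjusted p was 0.130. With each library set to the same mean the difference was −3.40 points (adjusted p = 0.795), since it is smaller than that of the average promoter. Without that setting, the promoter difference was 12.9 points without Kdm6b-cKO replicate 3 and 14.6 points without Kdm6b-cKO replicate 4. It was 13.8 points without WT replicate 7 or WT replicate 9. Those fits leave a genotype without replication, so no p-value is given for them. Within 25 kb 0.88 and 1.33 kb were covered in Kdm6b-cKO cells and 0 kb in WT cells (adjusted p = 0.325), and with each library set to the same mean the difference turned to −2.95 kb. The neighbour Tubb3, a tubulin gene of neurons that starts 4.32 kb downstream, had 23 and 637 bp of its promoter covered in Kdm6b-cKO cells and 0 bp in WT cells.

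Dct, dopachrome tautomerase of the melanin pathway, was the only enzyme or melanosome gene of the list with the mark near it (chr14:118012790-118052244, minus strand). Its promoter was covered over 1547 and 1343 bp in Kdm6b-cKO, or 25.8% and 22.4%, and 0 bp in either WT library. The difference of 24.1 ± 1.66 points passed limma (adjusted p = 0.0317), but the promoter entered that test only through the Kdm6b-cKO libraries, and with no filter on covered length the adjusted p was 0.153. The call was lost with equal peak number (9.47 points, adjusted p = 0.572) and with each library set to the same mean (6.90 points, 0.586). The difference was 22.4 points without Kdm6b-cKO replicate 3 and 25.8 points without Kdm6b-cKO replicate 4. It was 24.1 points without WT replicate 7 or WT replicate 9. Those fits leave a genotype without replication, so no p-value is given for them.

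The Dct mark was made of small peaks and not of a domain. Within 25 kb there were 7 and 4 peaks in the Kdm6b-cKO libraries and 2 in each WT library, none longer than 2.21 kb. They covered 6.80 and 3.65 kb in Kdm6b-cKO cells and 1.11 and 0.75 kb in WT cells, a difference of 4.29 ± 1.36 kb that did not pass limma (adjusted p = 0.134). At equal covered length it turned to −0.38 kb, with 0 kb in both Kdm6b-cKO libraries and 0 and 0.75 kb in WT, and with each library set to the same mean 0.24 kb remained. Over 50 kb on either side the peaks covered 26.6 and 14.9 kb in Kdm6b-cKO cells and 9.01 and 6.09 kb in WT cells. The antisense gene 4930435M08Rik starts inside Dct, 7.27 kb from its start, and had 2207 and 578 bp covered around that start in Kdm6b-cKO cells and 0 and 629 bp in WT cells.

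At Dct, Ednrb and Mc1r the stretch that both Kdm6b-cKO libraries covered and neither WT library did reached into coding sequence. It was 410 bp long at Dct, of which 194 bp were coding and 216 bp UTR, 179 bp at Ednrb and 712 bp at Mc1r, both coding throughout. The coding part is shown for Dct (chr14:118051585-118051778, minus strand) and Ednrb (chr14:103843291-103843469, minus strand), and its middle 240 bases for Mc1r (chr8:123407971-123408210, plus strand), because these bases are where the 2 Kdm6b-cKO lists overlap. CG is in capitals and the letters are those of GRCm38.p6 from RefSeq.
Dct: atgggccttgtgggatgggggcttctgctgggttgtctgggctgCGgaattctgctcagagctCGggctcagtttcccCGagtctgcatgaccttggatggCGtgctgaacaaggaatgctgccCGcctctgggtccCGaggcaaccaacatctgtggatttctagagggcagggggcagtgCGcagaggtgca
Ednrb: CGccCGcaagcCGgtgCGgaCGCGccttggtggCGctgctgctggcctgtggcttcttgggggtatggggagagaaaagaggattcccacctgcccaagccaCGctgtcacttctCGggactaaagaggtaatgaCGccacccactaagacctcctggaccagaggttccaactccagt
Mc1r: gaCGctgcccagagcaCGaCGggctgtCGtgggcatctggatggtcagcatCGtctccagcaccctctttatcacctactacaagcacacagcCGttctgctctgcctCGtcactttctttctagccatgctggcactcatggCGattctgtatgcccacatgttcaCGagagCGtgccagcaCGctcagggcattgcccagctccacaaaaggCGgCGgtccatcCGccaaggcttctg
Over the whole stretches the CpG density was 24.4 per kb at Dct, 55.9 per kb at Ednrb and 35.1 per kb at Mc1r. The stretch began 250 bases after the gene start at Dct, 933 bases after it at Ednrb and 628 bases after it at Mc1r.

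These peaks were weak ones. The Ednrb peaks had −log10 q of 2.85 and 2.71 and fold ratios over background of 2.79 and 2.77 in the Kdm6b-cKO libraries. Those over Mc1r had −log10 q of 2.22 and 2.18, which places them at the 3.56th and 5.66th percentile of their lists, near the study's cutoff of q = 0.01. Inside the Dct promoter the values were 3.26 and 2.35 in Kdm6b-cKO replicate 3 and 2.34 in Kdm6b-cKO replicate 4. The peak at 3.26 lay at the 59.6th percentile of its list. The median −log10 q of a list was 3.05 and 2.95 in Kdm6b-cKO and 3.13 and 3.04 in WT, so every Ednrb and Mc1r peak was below the median of its own library. With equal peak numbers, equal covered length or a −log10 q of at least 3, Ednrb and Mc1r had 0 bp in all 4 libraries and were not tested, while Dct kept 1137 bp in Kdm6b-cKO replicate 3 with equal numbers and with the stricter q and 0 bp with equal length. Kit and Sox10 stayed marked in all 4 libraries under each of these.

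**Figure D3:**
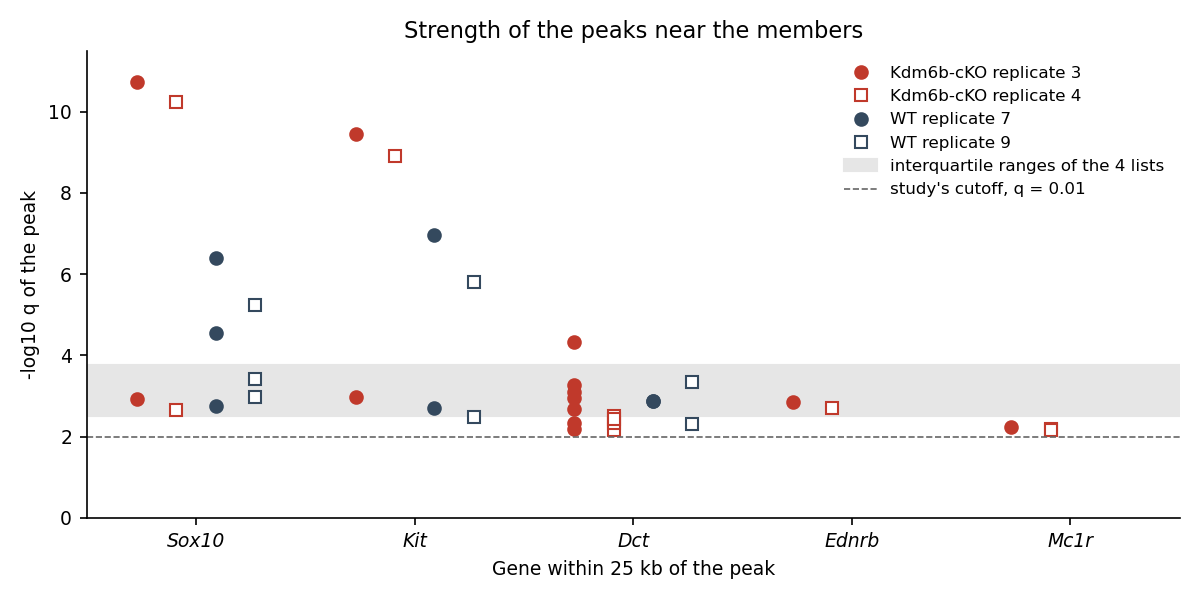
The −log10 q of each H3K27me3 peak within 25 kb of the 5 members that had any, 1 point per peak, Kdm6b-cKO (red) left of WT (dark blue), with the span of the interquartile ranges of the 4 lists in grey and the study's cutoff dashed. The peaks over Sox10 and Kit stand at 5.24 to 10.7, and those of Ednrb and Mc1r lie at 2.16 to 2.85.

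Tyr, the rate-limiting enzyme of melanin synthesis, Tyrp1, its partner in the eumelanin branch, Pmel, the protein of the melanosome fibrils, and Mlana, a melanosome membrane protein, had no covered base within 25 kb of the start in any library. With Mitf these are 5 of 10 members, and 42.7% of all protein-coding genes had no peak there. Tyr (chr7:87424771-87493512, minus strand) was the farthest from a peak, at about 635 to 636 kb in each of the 4 libraries. For Tyrp1 (chr4:80834123-80851719, plus strand) the nearest peak was 289 and 291 kb away in Kdm6b-cKO cells and 288 and 602 kb away in WT cells. For Mlana (chr19:29697824-29708634, plus strand) it was 116 and 203 kb away in Kdm6b-cKO cells and 120 and 243 kb away in WT cells. For Pmel (chr10:128704195-128720238, plus strand) it was 58.9 and 58.4 kb away in Kdm6b-cKO cells and 89.9 and 49.9 kb away in WT cells, and the promoters of its neighbours Cdk2 and Rab5b were uncovered as well.

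Over the members as a set, 3 of the 5 tested promoters (Kit, Dct and Mc1r) were called higher in Kdm6b-cKO by limma and 0 lower, beside 496 higher and 6 lower over all 6251 tested. The promoters of Dct, Ednrb and Mc1r passed the minimum of 500 bp only through Kdm6b-cKO, so any difference there had to be a higher one, and the count of calls is no support for a direction. None of the 3 calls held with 1 kb on either side of the start or with no filter on covered length. Over the alternatives that kept all 4 libraries, the limma adjusted p at the promoter spanned 0.0132 to 0.779 for Kit and 0.0305 to 0.586 for Dct. It spanned 0.0321 to 0.795 for Mc1r and was at least 0.325 for Ednrb. For Sox10 within 25 kb it spanned 0.0218 to 0.285. Within 25 kb limma called 0 of 5 members, with unadjusted p of 0.0123 at Sox10 and 0.0422 at Dct, beside 7.69% of genes tested (910 higher and 0 lower). All 5 had both Kdm6b-cKO lengths above both WT lengths, which 65.3% of tested genes had too. Ednrb and Mc1r entered that test only through Kdm6b-cKO as well. The calls over all genes changed when 1 library was left out: within 25 kb they were 0 without Kdm6b-cKO replicate 3, Kdm6b-cKO replicate 4 or WT replicate 9 and 1528 higher without WT replicate 7, and at the promoter 1166, 1355, 407 and 0 were higher, and 62, 24, 5 and 0 lower, without Kdm6b-cKO replicate 3, Kdm6b-cKO replicate 4, WT replicate 7 and WT replicate 9. With each library set to the same mean the calls within 25 kb over all genes were 1430 higher and 407 lower, and at equal covered length 68 higher and 39 lower. At equal covered length the promoter calls over all genes were 135 higher and 78 lower.

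The members also differed in CpG content within 500 bases of the gene start. Other annotated starts were not read, such as those of Sox10 0.75 to 0.77 kb away and of Ednrb 0.71 kb away. Kit had 69.9 CpG per kb and Sox10 13.0, beside a median of 48.95 over the 3292 genes marked in all 4 libraries. Ednrb had 33.97, Dct 15.98 and Mc1r 10.99, and the 929 genes marked in both Kdm6b-cKO libraries alone had a median of 22.98. Of the unmarked members, Tyr had 4.0, Tyrp1 5.00, Mlana 8.99, Pmel 24.98 and Mitf 51.9, where the 15477 unmarked genes had a median of 40.96. Tyr, Tyrp1 and Mlana thus fell among the 4766 genes with under 10 CpG per kb, of which 83.3% were unmarked, 6.19% marked in all 4 libraries and 3.42% in both Kdm6b-cKO libraries alone. Dct, Mc1r and Sox10 were among the 2922 genes with 10 to 20 CpG per kb, where the share marked in both Kdm6b-cKO libraries alone was 8.83%, above that in each of the other ranges taken.

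**Figure D4:**
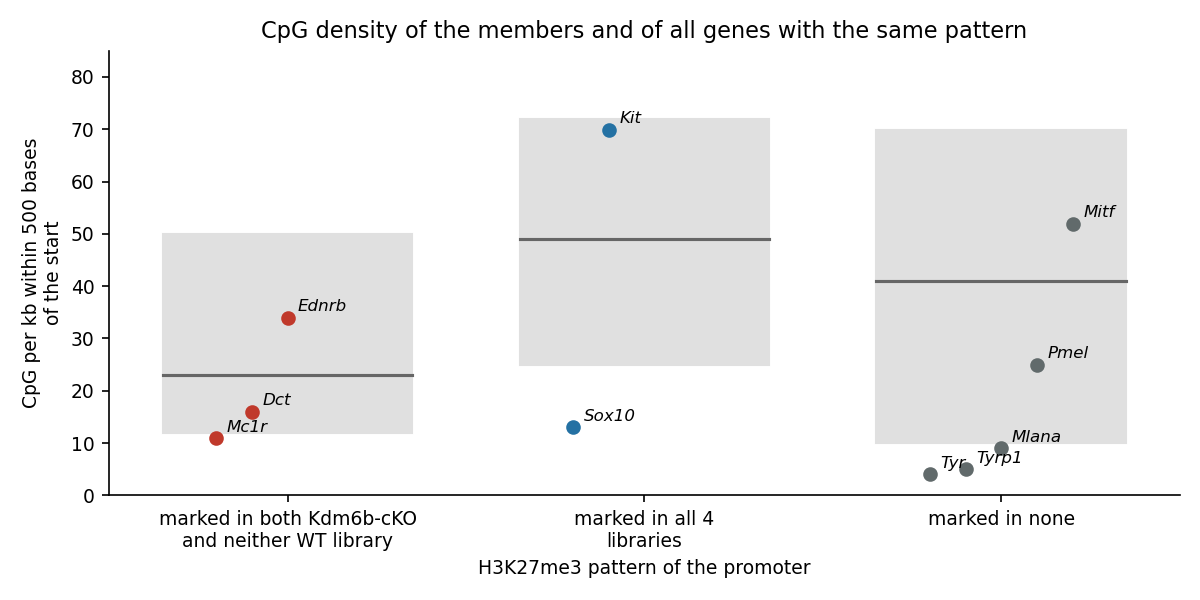
CpG per kb within 500 bases of the start of each member (points), grouped by the H3K27me3 pattern of its promoter, over the interquartile range (grey box) and median (line) of all genes with the same pattern. Sox10 at 13.0 lies below the box of genes marked in all 4 libraries, and Tyr, Tyrp1 and Mlana lie below that of unmarked genes.

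Genes near the members in function were read in the same way. Of 12 further melanosome and pigment genes, 4 were marked in at least 1 library, against 28.8% of all protein-coding genes. Of the 4, 2 were marked in all 4 libraries and 0 in both Kdm6b-cKO libraries alone, against 52.7% and 14.9% of marked genes. Limma called none at either width. At an unadjusted p under 0.05, 0 of 4 tested promoters and 1 of 9 tested windows were higher in Kdm6b-cKO. The share of all genes at that unadjusted p was not computed. This count and the like counts of the lists below are therefore description only. Mlph, which links melanosomes to the myosin motor, had 10.5 and 7.45 kb within 25 kb in Kdm6b-cKO cells and 5.22 and 0.74 kb in WT cells (adjusted p = 0.161). Gpnmb, a melanosome glycoprotein related to Pmel, had 6.16 and 4.86 kb in Kdm6b-cKO cells and 2.25 and 0 kb in WT cells (adjusted p = 0.104). Slc45a2, a melanosome transporter, had 15.2 and 14.2 kb in Kdm6b-cKO cells and 13.0 and 9.26 kb in WT cells (adjusted p = 0.227).

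Neural crest transcription factors mostly carried the mark. Of 16 such factors 13 were marked in at least 1 library, against 28.8% of all protein-coding genes. Of the 13, 11 were marked in all 4 libraries as Sox10 was, against 52.7% of marked genes. At 8 of the 13 the promoter was covered at 100% in all 4 libraries, where the promoter measure could not show a gain. Within 25 kb limma called 2 of the 14 tested higher in Kdm6b-cKO and 0 lower, beside 7.69% higher and 0 lower over all tested genes. The median difference was 1.60 kb over the 14 and 2.41 kb over all tested genes. Limma called 0 of the 13 promoters (before adjustment, 1 above and 1 below WT at p under 0.05). Fits that leave 1 library out cannot check the calls of Sox8 and Msx1, since a genotype is then without replication. Sox8, a close relative of Sox10, had 21.9 and 24.2 kb in Kdm6b-cKO cells, against 10.5 and 8.38 kb in WT cells (adjusted p = 0.0355). Msx1, a homeobox gene of the neural plate border, had 31.8 and 31.5 kb in Kdm6b-cKO cells, against 24.96 and 26.2 kb in WT cells (adjusted p = 0.0456). Lmx1a, a roof plate homeobox gene, had 47.4 and 46.3 kb in Kdm6b-cKO cells and 42.4 and 38.1 kb in WT cells (adjusted p = 0.107). Sox9, the third gene of the same Sox group, had 10.4 and 3.43 kb in Kdm6b-cKO cells and 0.59 and 0 kb in WT cells (adjusted p = 0.196).

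Among ligands, receptors and antagonists of the Kit, endothelin and melanocortin pathways 15 of 16 symbols were found. Of these 5 were marked, against 28.8% of all protein-coding genes. Of the 5, 2 were marked in all 4 libraries and 3 in both Kdm6b-cKO libraries alone, against 52.7% and 14.9% of marked genes. Those 3, Edn2, Edn3 and Mc4r, passed the minimum of 500 bp only through Kdm6b-cKO, so any promoter difference there had to be a higher one. Limma called none at either width, with 2 promoters and 3 windows higher at an unadjusted p under 0.05. The median difference was 1.61 kb over the 9 tested windows and 2.41 kb over all tested genes. The ligand of Kit, Kitl, which dermal cells make, had no peak within 25 kb in any library. Edn2, an endothelin ligand, had 12.4 and 12.9 kb in Kdm6b-cKO cells and 5.88 and 1.57 kb in WT cells (adjusted p = 0.0707). Mc3r, a melanocortin receptor of the brain, had 21.2 and 18.0 kb in Kdm6b-cKO cells and 12.3 and 7.18 kb in WT cells (adjusted p = 0.0897). Pomc, the precursor of the melanocortins, had 19.2 and 14.7 kb in Kdm6b-cKO cells and 12.5 and 6.81 kb in WT cells (adjusted p = 0.177).

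Schwann cells are the other neural crest lineage of the skin that uses Sox10. Of 12 Schwann cell and glial genes 9 were marked, against 28.8% of all protein-coding genes. Of the 9, 6 were marked in all 4 libraries, against 52.7% of marked genes. Limma called 1 of the 9 tested within 25 kb higher in Kdm6b-cKO, beside 7.69% of all tested genes. At the promoter it called 0 of 9 (1 higher at an unadjusted p under 0.05). Pou3f1, a POU factor of promyelinating Schwann cells, had 34.5 and 35.6 kb in Kdm6b-cKO cells, against 24.0 and 21.4 kb in WT cells (adjusted p = 0.0360). Fits that leave 1 library out cannot check this call either. Erbb3, the neuregulin receptor of glia, had 22.0 and 16.8 kb in Kdm6b-cKO cells and 11.4 and 7.48 kb in WT cells (adjusted p = 0.0987). Gfra3, a receptor of glial and sensory cells, had 13.6 and 15.1 kb in Kdm6b-cKO cells and 7.93 and 5.78 kb in WT cells (adjusted p = 0.0540).

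Over all genes, those whose 4 lengths within 25 kb lay closest to Sox10 were Slc45a3 and Lgr6, at Euclidean distances of 2.11 and 2.35 kb. Those closest to Kit were Susd1 and Gpr25, at 0.57 and 0.60 kb, and those closest to Dct were Fpr1 and Arhgef15, at 0.75 and 0.77 kb. With 4 libraries this says only that the lengths were alike.

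The fibroblast label was set against marker genes. None of 10 dermal fibroblast markers was marked at the promoter in any library, and 7 of them, Col1a1, Col1a2, Col3a1, Lum, Dcn, Thy1 and Fbn1, had no covered base within 25 kb. Of all protein-coding genes 28.8% were marked in at least 1 library and 42.7% had no peak within 25 kb. An unmarked promoter is thus the usual case and does not by itself identify the cells. Their summed length within 25 kb was 9.49 and 12.4 kb in Kdm6b-cKO cells and 6.91 and 5.51 kb in WT cells. Of markers of other cell types, 4 of 6 keratinocyte, 2 of 4 endothelial and 3 of 4 immune markers were marked in at least 1 library, beside the 28.8% of all genes. Limma called 2 of them, the keratins Krt1 and Krt5, higher in Kdm6b-cKO within 25 kb (adjusted p = 0.0272 and 0.0354), beside 7.69% of all tested genes. Krt5 had 0 kb in both WT libraries, so it entered the test only through Kdm6b-cKO and could only come out higher. The calls of Krt1 and Krt5 cannot be checked by fits that leave 1 library out, since a genotype is then without replication. The summed length within 25 kb of the keratinocyte list was 78.7 and 67.7 kb in Kdm6b-cKO cells and 41.6 and 37.5 kb in WT cells, that of the endothelial list 16.1 and 10.4 kb in Kdm6b-cKO cells and 5.40 and 3.32 kb in WT cells, and that of the immune list 70.2 and 58.3 kb in Kdm6b-cKO cells and 45.1 and 27.7 kb in WT cells. Of these lists Trp63, Pecam1 and Ptprc had no covered base in any library. The part of cell composition in the member values was not tested. Of 10 housekeeping genes 1, Pgk1, was marked in both Kdm6b-cKO libraries alone, and the list summed to 11.2 and 5.22 kb in Kdm6b-cKO cells and 3.76 and 1.63 kb in WT cells. Kdm6b itself (chr11:69398508-69413675, minus strand) had an uncovered promoter in all 4 libraries and 2.79 and 4.40 kb within 25 kb in Kdm6b-cKO cells and 0 kb in WT cells (adjusted p = 0.0918), and a list of peaks does not check its deletion.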

How the data were processed

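H3K27me3 ChIP-seq peak lists of 2 Kdm6b-cKO and 2 WT libraries were used, grouped by their titles, and the input was not used here. Per the submitters' processing notes build mm10 and the tools MACS2 2.2.7.1, Bowtie2 2.3.5.1, deepTools 3.5.1, SAMtools 1.9 and bcl2fastq were used. The authors called broad peaks in each library on its own at q 0.01, after subsampling to a like number of reads. How the input entered the calling is not given in the sources used here. For each peak the deposited lists give a position, a display score, a fold ratio over background, and −log10 p and −log10 q, all averaged over the region by the authors' peak caller. The lists hold no read counts, so the reads behind each peak are unknown and no counting interval is given.

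Covered length was computed on 19 autosomes and X around the starts of 21728 protein-coding genes of GENCODE M21. The percent of start ± 3 kb and the kb within 25 kb were compared with limma 3.58.1 (R 4.3.3, lmFit and eBayes) over all genes with at least 500 bp covered in at least 1 library, with Benjamini-Hochberg adjustment at 0.05. This replaces the read-based test of the study. With 2 against 2 libraries an exact two-sided permutation test cannot go below 0.333. The limma step was tested on simulated data. Covered shares are bounded and often equal in both libraries of a genotype, which limits that fit. Alternatives were equal peak number (22597), equal covered length (61.5 Mb), −log10 q of at least 3, any annotated start, other widths and minimums, no filter, libraries set to the same mean, and each library left out.

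Named genes were the 10 members, from each further list up to 3 with the largest difference in length within 25 kb and those passing limma, the 2 genes nearest in pattern to the 3 members with the most covered length, their neighbours, and Kdm6b. Marker and neighbour genes are named beside those. The members and lists were chosen with earlier results of these data known. CpG was read from GRCm38.p6, and upstream sequences from RefSeq. Python 3.11.15, numpy 2.4.6, pandas 2.3.3 and matplotlib 3.10.9 were used.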

Additional observations from a re-analysis of the deposited data

How the results depend on the processing

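The count of 2 members marked in all 4 libraries held under every alternative run. The 3 members marked in both Kdm6b-cKO libraries alone became 0 with equal peak number, equal covered length, a −log10 q of at least 3, or a minimum of 1500 bp. The 3 promoter calls became 1, that of Kit, with equal peak number and with equal covered length. They became 0 with the stricter q, with libraries set to the same mean, with no filter and with 1 kb on either side of the start. The 0 calls within 25 kb became 1 with libraries set to the same mean. Calls without 1 library are not counted here, since a genotype then has no replication. The 5 members with both Kdm6b-cKO lengths above both WT lengths became 2 with equal peak number, equal covered length and the stricter q. The difference in summed length, 20.5 kb, was 13.0 kb with equal peak number, 12.8 kb with equal covered length, 13.3 kb within 10 kb and 37.7 kb within 50 kb, and 16.2 to 24.8 kb when 1 library was left out. With libraries set to the same mean the Mc1r promoter difference turned to −3.40 points, and the differences within 25 kb turned to −0.26 kb for Kit, −2.74 kb for Ednrb and −2.95 kb for Mc1r. That of Dct turned to −0.38 kb with equal covered length. Causes were not tested, beyond what each alternative removes by construction. Where a member had under 500 bp in every library it was not fitted (Ednrb and Mc1r with the 3 stricter sets of peaks at both widths, Dct at the promoter with equal covered length). No paired analysis was possible because the genotypes share no replicate number.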
